A study of Mus musculus with 12 samples.

Results

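Nfib belongs to the nuclear factor I (NFI) transcription factors, which bind DNA as dimers. Its binding was measured here in windows around 5 genes of the Notch pathway, the receptors Notch1 and Notch2, the ligands Jag1 and Dll1 and the effector Hes1. The members were every Nfib peak of the lines KP1 and KP22 whose start lay in a fixed mm9 window set around each gene. These windows held 45 of 24905 KP1 peaks and 13 of 10120 KP22 peaks, 58 of 35025 peaks in all. The libraries came from chromatin immunoprecipitation followed by sequencing in 3 lines derived from mouse small cell lung tumors, 16T, KP1 and KP22, all of genotype Trp53-/-;Rb1-/- and grown as floating spheres. Per the labels, Nfib expression was high in KP1 and 16T and low in KP22, and each line had 2 input and 2 Nfib pulldown libraries. Peak positions were analysed for KP1 and KP22 only, since the file labelled as the 16T list held 0 intervals. Each line had 1 peak list with no score, so no value below has a replicate error, the number of reads behind a peak is unknown, and KP22 is the only low line.

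Notch signalling passes between touching cells. A ligand such as Jag1 or Dll1 on one cell binds a Notch receptor on its neighbour, the receptor is cleaved, and its intracellular part joins the DNA-binding protein RBPJ in the nucleus and turns on genes such as Hes1. Hes1 is a basic helix-loop-helix repressor of transcription, and in the airway Notch signalling is known for limiting the formation of neuroendocrine cells, the cell type that small cell lung cancer resembles.

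The promoters of 4 members (Notch1, Notch2, Jag1 and Dll1, with 5 starts) were found in the RefSeq table of GRCm38.p6, each as 250 bases before to 50 bases after a transcript start. They are described because NFI proteins bind the palindrome TTGGC, 5 bases of any kind, GCCAA, or a single arm of it. A single arm, TTGGC on either strand (GCCAA on the printed strand), was present in 46.7% of all 32851 promoters of the table, so a match is frequent. Of the 5 member promoters, the Notch2 promoter and 1 of the Dll1 promoters held it. The palindrome, which contains both arms, was found in 0.0365% of all promoters and in 0 of the 5. The core TGGGAA of RBPJ, searched on both strands (TTCCCA), was found in 25.6% of all promoters and in 0 of the 5. The 2 promoters with an arm read as follows, 5′ to 3′ on the strand of the gene, with the arms in capitals.
Notch2 promoter (GRCm38.p6, chr3:98013288-98013587, + strand): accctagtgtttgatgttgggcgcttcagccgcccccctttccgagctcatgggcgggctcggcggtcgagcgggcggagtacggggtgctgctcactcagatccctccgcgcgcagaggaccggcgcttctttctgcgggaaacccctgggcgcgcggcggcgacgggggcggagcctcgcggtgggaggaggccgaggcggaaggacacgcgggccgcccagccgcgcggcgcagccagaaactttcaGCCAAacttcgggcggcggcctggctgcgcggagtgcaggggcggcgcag
Dll1 promoter (GRCm38.p6, chr17:15375774-15376073, - strand): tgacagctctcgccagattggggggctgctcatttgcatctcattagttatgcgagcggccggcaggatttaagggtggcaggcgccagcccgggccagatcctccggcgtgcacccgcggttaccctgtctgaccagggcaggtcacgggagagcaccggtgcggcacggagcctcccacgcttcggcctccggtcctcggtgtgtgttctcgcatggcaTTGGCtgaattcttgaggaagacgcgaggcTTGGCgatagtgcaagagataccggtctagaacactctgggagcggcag
The arm of Notch2 began at base 251 of the 300, which is the transcript start, and those of Dll1 began at bases 222 and 252. The peaks are on mm9, so whether a peak lay on a promoter, in an exon or in an intron was not analysed here. Neighbouring protein-coding genes in the RefSeq table are Sec16a and Egfl7 for Notch1, Gm5544 and Adam30 for Notch2, Slx4ip and Btbd3 for Jag1, Ermard and Fam120b for Dll1, and Opa1 and Cpn2 for Hes1. A peak in a window is therefore named by the window and was not assigned to the gene.

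The Hes1 window held the most Nfib peaks in KP1 and the Notch2 window the fewest in both lines. KP1 had 19 peaks in the Hes1 window, 9 in that of Notch1, 8 in that of Jag1, 7 in that of Dll1 and 2 in that of Notch2. KP22 had 4 in the Notch1 window, 3 each in those of Hes1 and Dll1, 2 in that of Jag1 and 1 in that of Notch2. Windows differ in length, and per Mb the KP1 list gave 59.4 peaks at Hes1, 32.1 at Notch1, 22.9 at Jag1, 22.6 at Dll1 and 4.44 at Notch2. The KP22 list gave 14.3 per Mb at Notch1, 9.68 at Dll1, 9.38 at Hes1, 5.71 at Jag1 and 2.22 at Notch2. Both lists thus placed Notch2 last, and they differed in the place of Hes1.

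**Figure D1:**
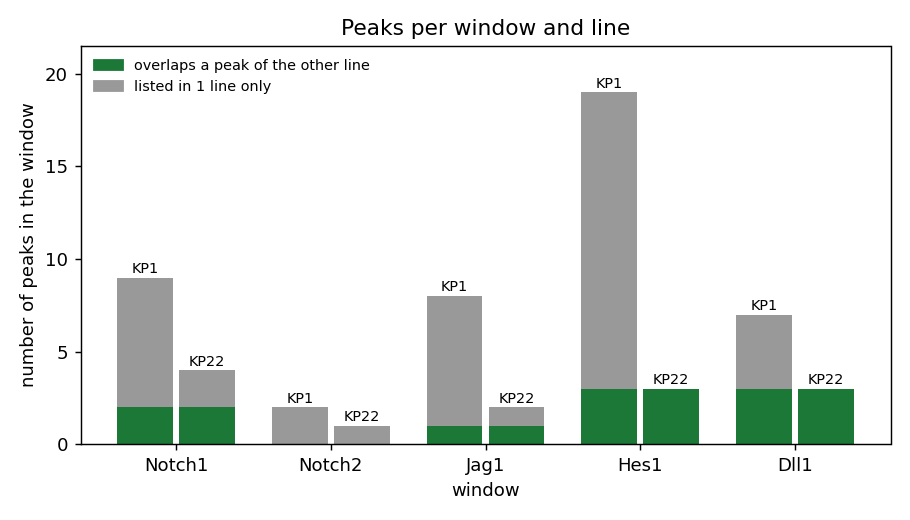
Number of Nfib peaks in each window (vertical axis) for KP1 (left bar) and KP22 (right bar), with green for peaks that overlap a peak of the other line by at least 1 base and grey for the rest. The KP1 bar of Hes1 reaches 19 peaks, of which 3 are green, and the 3 KP22 peaks of Hes1 and of Dll1 are all green.

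Summed over the 5 windows, KP1 had 3.46 peaks for each KP22 peak, beside 2.46 over the whole lists. The windows held 0.181% of the KP1 list and 0.128% of the KP22 list, a ratio of shares of 1.41 (exact 95% interval 0.746 to 2.84). Hes1 had the highest ratio of shares, 2.57 (0.758 to 13.6), followed by Jag1 at 1.63 (0.324 to 15.7). The ratio was 0.948 (0.216 to 5.68) at Dll1, 0.914 (0.255 to 4.06) at Notch1 and 0.813 (0.0423 to 47.9) at Notch2. Every one of these 6 intervals includes 1, so no difference between a window and the whole lists in the balance of KP1 and KP22 peaks was detectable beyond counting error. The intervals cover counting error only and treat peaks as independent. Without the Hes1 window, the remaining 26 KP1 and 10 KP22 peaks gave a ratio of shares of 1.06 (0.493 to 2.46).

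Of the 45 KP1 peaks in the windows, 9 overlapped a KP22 peak by at least 1 base, which was 20.0%, against 26.8% of all KP1 peaks. Of the 13 KP22 peaks, 9 overlapped a KP1 peak, which was 69.2%, against 66.1% of all KP22 peaks. The windows left 36 peaks in KP1 alone and 4 in KP22 alone. Shared peaks overlap by definition, so their middles had to lie close together. The middles were 3.0 to 111.5 bases apart (median 30.0), and the same distance over the whole lists is not given here. In 6 of the 9 pairs 1 peak lay wholly inside the other. The KP1 peak was the wider in 4 pairs and the KP22 peak in 5.

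**Figure D2:**
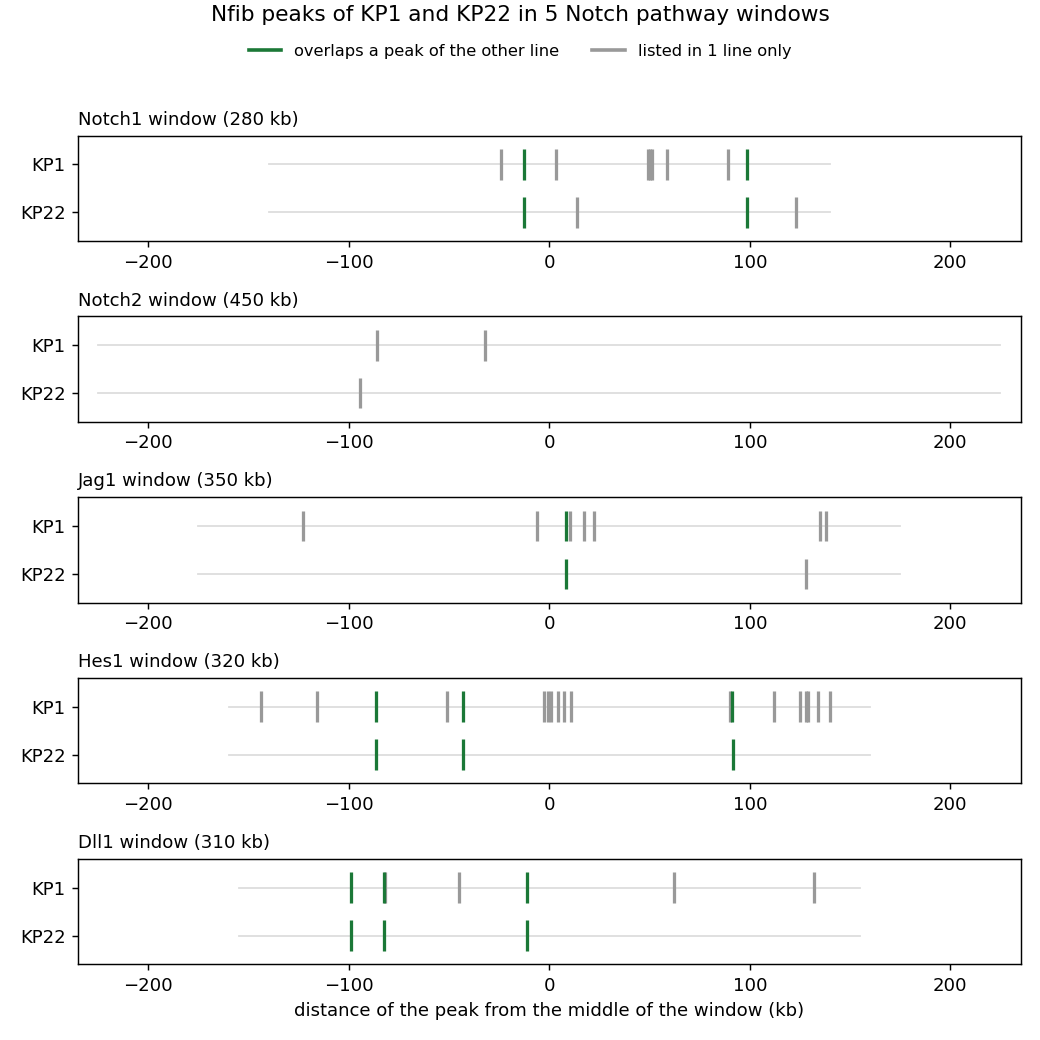
Position of each Nfib peak as its distance in kb from the middle of the window (horizontal axis), with KP1 above KP22 in each of the 5 windows and green for peaks that overlap a peak of the other line. The 6 grey KP1 peaks near the middle of the Hes1 window have no KP22 peak beneath them, and in the Dll1 window 1 grey KP1 peak of 150 bases is hidden beside a green one.

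Notch1, the receptor whose locus held the second most KP1 peaks, was described in the window chr2:26200000-26480000. Its 9 KP1 peaks spanned 123.0 kb and were 154 to 365 bases wide (median 213.0), and its 4 KP22 peaks spanned 136.0 kb and were 159 to 217 bases wide (median 182.5). Of these, 2 of 9 KP1 peaks and 2 of 4 KP22 peaks were shared, beside 26.8% and 66.1% over the whole lists. The shared peaks lay at 2 places. At the first, a KP22 peak of 183 bases at chr2:26327355-26327537 lay inside a KP1 peak of 328 bases at chr2:26327290-26327617. At the other, a KP22 peak of 217 bases at chr2:26438387-26438603 and a KP1 peak of 166 bases at chr2:26438469-26438634 had 135 bases in common.

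The widest KP1 peak of the Notch1 window lay at chr2:26388855-26389219 (365 bases), after which came the shared peak of 328 bases and a peak of 270 bases at chr2:26391103-26391372. The first and last of these lie in a run of 3 KP1 peaks within 2.52 kb that held no KP22 peak. The nearest KP22 peak was 35.2 to 37.5 kb away from the peaks of this run. KP22 alone had peaks at chr2:26353481-26353639 (159 bases) and chr2:26462703-26462884 (182 bases), 9.98 and 24.1 kb from the nearest KP1 peak. Consecutive windows of 280 kb with at least 1 peak had a median of 3.0 KP1 and 1.0 KP22 peaks, and 8.49% of them had as many KP1 peaks as Notch1 or more and 10.2% as many KP22 peaks or more. The 840 windows with 7 to 11 KP1 peaks had a median of 3.0 KP22 peaks (quartiles 1.0 and 4.0), so the 4 at Notch1 equalled the upper quartile.

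Notch2, the other receptor, had few peaks although its window, chr3:97650000-98100000, was the longest. KP1 had a peak of 299 bases at chr3:97788933-97789231 and one of 229 bases at chr3:97842560-97842788. KP22 had a single peak of 173 bases at chr3:97780509-97780681, which was 8.25 kb from the nearest KP1 peak. No peak was shared, with 0 of 2 in KP1 and 0 of 1 in KP22, beside 26.8% and 66.1% over the whole lists. Windows of 450 kb with a peak had a median of 4.0 KP1 peaks, and 77.1% of them had 2 or more. For KP22 the median was 1.0, the same as at Notch2. The KP1 number at Notch2 equalled the lower quartile of these windows, which was 2.0. The 3790 windows with up to 4 KP1 peaks, those without a peak included, had a median of 0.0 KP22 peaks (quartiles 0.0 and 1.0), so the 1 at Notch2 equalled the upper quartile.

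Jag1, a ligand that is bound to the membrane, was described in the window chr2:136750000-137100000. Its 8 KP1 peaks were 150 to 681 bases wide with a median of 336.0, the highest median of the 5 windows in KP1, beside 232.0 over the whole KP1 list. The widest was the peak at chr2:136935210-136935890 (681 bases), the widest of all 58 peaks, followed by chr2:136918698-136919120 (423 bases) and chr2:136947219-136947637 (419 bases). None of these 3 overlapped a KP22 peak. In the window 1 of 8 KP1 peaks and 1 of 2 KP22 peaks were shared, beside 26.8% and 66.1% over the whole lists.

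The shared place of the Jag1 window was chr2:136933283-136933503 in KP22 (221 bases), which contained a KP1 peak of 206 bases at chr2:136933298-136933503. Both peaks ended at the same base. The shared place was 1.71 kb from the widest KP1 peak, which KP22 did not list. The second KP22 peak, of 159 bases at chr2:137052494-137052652, was listed in KP22 alone, 7.1 kb from the nearest KP1 peak. Of the windows of 350 kb with a peak, 18.0% had 8 or more KP1 peaks and 42.5% had 2 or more KP22 peaks. The 1210 windows with 6 to 10 KP1 peaks had a median of 3.0 KP22 peaks (quartiles 2.0 and 4.0), so the 2 at Jag1 equalled the lower quartile.

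Dll1, the other ligand, was described in the window chr17:15350000-15660000. All 3 of its KP22 peaks overlapped a KP1 peak, as did 66.1% of all KP22 peaks. The KP22 peak at chr17:15406075-15406389 (315 bases) contained a KP1 peak of 240 bases at chr17:15406108-15406347, with middles 4.5 bases apart. A KP1 peak of 367 bases at chr17:15422298-15422664, the widest of the window, contained a KP22 peak of 249 bases at chr17:15422413-15422661. The third pair lay at chr17:15493637-15493820 in KP1 (184 bases) and chr17:15493651-15493812 in KP22 (162 bases), with middles 3.0 bases apart, the closest of the 9 pairs.

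The KP1 list added 4 narrow peaks to the Dll1 window, each of 150 to 199 bases, the widest at chr17:15567049-15567247. One of them, of 150 bases, was 0.147 kb from a shared place, and another, also of 150 bases, was 143.0 kb from the nearest KP22 peak. Its 3 shared peaks made up 42.9% of the KP1 peaks of the window, the highest share of the 5 windows. Of all KP1 peaks, 26.8% were shared. Of the windows of 310 kb with a peak, 18.8% had 7 or more KP1 peaks and 22.1% had 3 or more KP22 peaks. The 1537 windows with 5 to 9 KP1 peaks had a median of 2.0 KP22 peaks (quartiles 1.0 and 3.0), so the 3 at Dll1 equalled the upper quartile.

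Hes1, the transcriptional effector, had the densest KP1 peaks. Its window, chr16:29900000-30220000, held 42.2% of the KP1 peaks of all 5 windows, and 3 of its 19 KP1 peaks (15.8%) overlapped a KP22 peak, against 26.8% of all KP1 peaks. KP1 peaks were 150 to 612 bases wide (median 277.0) and covered 5949 bases, while the 3 KP22 peaks were 220 to 567 bases wide (median 388.0) and covered 1175 bases. The widest KP1 peaks lay at chr16:30184749-30185360 (612 bases), chr16:30070349-30070842 (494 bases) and chr16:29944098-29944533 (436 bases), and none of them overlapped a KP22 peak.

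All 3 KP22 peaks of the Hes1 window were shared by at least 1 base, as were 66.1% of all KP22 peaks. At a reciprocal overlap of at least 50%, 1 of the 3 was shared. At an overlap of at least 50% of the shorter peak, all 3 were. The shares of the whole lists at these 2 definitions are not given here. The widest KP22 peak, of 567 bases at chr16:29973366-29973932, contained a KP1 peak of 277 bases at chr16:29973429-29973705. The next, of 388 bases at chr16:30016877-30017264, had 354 bases in common with a KP1 peak of 380 bases at chr16:30016911-30017290. The last, of 220 bases at chr16:30151316-30151535, overlapped the end of a KP1 peak of 417 bases at chr16:30151106-30151522 by 207 bases, with middles 111.5 bases apart, the most of the 9 pairs. KP22 had the wider peak at 2 of these 3 places.

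KP1 peaks of the Hes1 window were grouped in runs, in which neighbouring peaks lay within 5000 bases, a definition chosen after the positions were seen. The longest run, at chr16:30057111-30070842 near the middle of the window, held 6 peaks in 13.7 kb, with widths of 192, 388, 226, 321, 224 and 494 bases in order of position. No KP22 peak lay in it, and the nearest was 39.8 to 53.1 kb away from its peaks. A second run, at chr16:30184749-30194326, held 4 peaks in 9.58 kb and no KP22 peak. The remaining Hes1 run, of 2 peaks at chr16:30149985-30151522, held 1 KP22 peak. Runs of 2 KP1 peaks at chr2:136933298-136935890 (Jag1) and chr17:15422298-15422958 (Dll1) also held 1 KP22 peak each. The other Jag1 runs, of 2 KP1 peaks each at chr2:136942329-136947637 and chr2:137059750-137062962, held no KP22 peak. On chromosomes 1 to 19 and X, KP1 had 34 runs of at least 6 peaks, of which 8 (23.5%) held no KP22 peak, and 263 runs of at least 4 peaks, of which 101 (38.4%) held none. Of the 3658 KP1 runs of at least 2 peaks there, 2066 (56.5%) held no KP22 peak. With a spacing of 2500 bases the longest Hes1 run had 3 peaks, and with 10000 bases it had 6.

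Few windows of this length were as dense in KP1. Of the 6094 consecutive windows of 320 kb with a peak, 0.919% had 19 or more KP1 peaks, against a median of 3.0 and a maximum of 55, while 22.8% had 3 or more KP22 peaks. The 50 windows with 17 to 21 KP1 peaks had a median of 6.0 KP22 peaks (quartiles 4.0 and 9.0), and 22.0% of them had 3 or fewer, as at Hes1. The number of KP22 peaks at Hes1 was thus below the lower quartile of windows with a similar KP1 count, whereas Jag1 was at its lower quartile and Notch1, Notch2 and Dll1 at their upper ones.

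**Figure D3:**
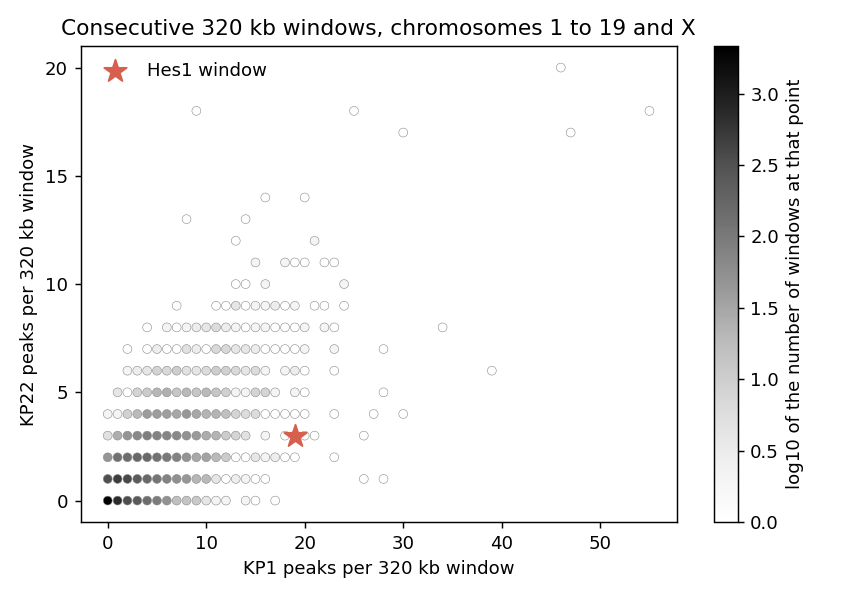
Number of KP1 peaks (horizontal axis) and KP22 peaks (vertical axis) in consecutive windows of 320 kb on chromosomes 1 to 19 and X, with each point shaded by the log10 of the number of windows there and a star for the Hes1 window. The star lies at 19 KP1 and 3 KP22 peaks, on the lower side of the windows with a similar KP1 count.

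Widths overlapped between the lines. Over the 5 windows the KP1 peaks had a median width of 259.0 bases and the KP22 peaks 217.0, beside 232.0 and 227.0 in the whole lists. The 36 KP1 peaks outside any overlap had a median of 255.0 bases, against 277.0 for the 9 shared ones, and the ranges of 150 to 681 and 166 to 417 bases overlapped. The 4 KP22 peaks outside any overlap were narrow, at 159 to 182 bases (median 166.0), against 162 to 567 bases (median 221.0) for the shared ones. Over the whole lists, the median of shared peaks was 258.0 in KP1 and 249.0 in KP22, and that of the rest was 221.0 and 196.0.

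**Figure D4:**
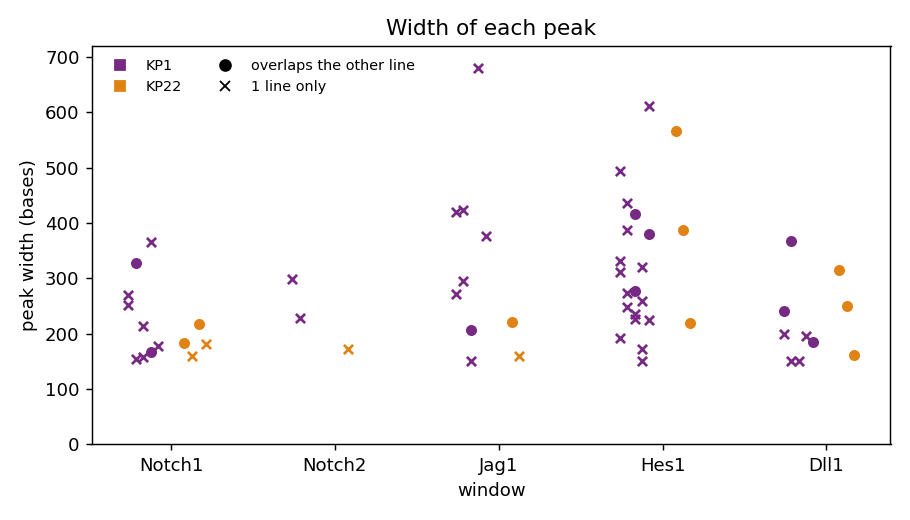
Width in bases (vertical axis) of each of the 58 peaks by window, in purple for KP1 and orange for KP22, with dots for peaks that overlap a peak of the other line and crosses for the rest. The 4 orange crosses lie between 159 and 182 bases, and the widest cross, at 681 bases, is a KP1 peak of the Jag1 window.

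The 4 peaks listed in KP22 alone lay 7.1 to 24.1 kb from a KP1 peak (median 9.12), while the 3424 such peaks on chromosomes 1 to 19 and X had a median of 27.9 kb (quartiles 8.35 and 81.1). The 36 KP1 peaks outside any overlap were 0.147 to 143.0 kb from the nearest KP22 peak (median 35.9). For the 18190 such peaks on chromosomes 1 to 19 and X, the median was 51.9 kb (quartiles 16.3 and 136.0).

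The edges of the windows also fixed which peaks were counted. Distances to an edge are taken from the start of the peak. The outside peaks nearest to an edge were a KP1 peak 2.24 kb and a KP22 peak 2.31 kb below the Notch1 window, and a KP1 peak 4.89 kb and a KP22 peak 4.86 kb below the Dll1 window. The inside peaks nearest to an edge were a KP1 peak 15.5 kb from the lower edge of the Hes1 window and a KP22 peak 17.3 kb from the upper edge of the Notch1 window.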

How the data were processed

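Nfib binding was measured by chromatin immunoprecipitation and sequencing in 3 lines, with 12 libraries grouped by the line and sample type in their titles. The submitters' processing notes name Bowtie2, MACS2, DESeq2 and DESeq and the build mm9. Versions, roles, the peak threshold, the fragment length, duplicate handling and whether libraries were pooled are not given in the sources used here. These settings bear on how many peaks are listed and how wide they are. The deposited lists of KP1 and KP22 give a start (counted from 0, printed here from 1) and an end per peak, with a blank score. The authors' table of merged regions was not used, because its regions carry no position.

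Overlaps were computed with pandas 2.3.3 under Python 3.11.15 and checked on peaks placed by hand. Intervals were taken from scipy 1.17.1, arrays from numpy 2.4.6 and plots from matplotlib 3.10.9. A peak belonged to a window by its start. Intervals are exact Clopper-Pearson ones at 95%. Consecutive windows of each window's length ran from the start of chromosomes 1 to 19 and X to the last peak, and windows of like count had up to 2 KP1 peaks more or fewer. Unlike the 5 windows, the consecutive ones were placed without regard to genes. The balance of the lines was read from the interval of the ratio of shares, over peaks and not over replicates, and no other test between lines was made. Peaks were named as follows: all where a line had up to 5 in a window, otherwise the 3 widest, the shared pairs and those of KP22 alone. Members, lists and rules were chosen with earlier results of these data known.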

Additional observations from a re-analysis of the deposited data

How the results depend on the processing

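The number of peaks moved with the extent of the windows and the width asked of a peak, by construction. The 45 KP1 and 13 KP22 peaks became 24 and 3 with peaks of at least 250 bases, 25 and 6 in the middle 50% of each window, and 81 and 29 in windows widened by 50% on each side. Without the Hes1 window, an alternative chosen after seeing the data, 26 KP1 peaks were left. KP1 had more peaks than KP22 in each of these settings, but its whole list is also the longer, with 2.46 peaks for each KP22 peak. The number of peaks of at least 250 bases in the whole lists is not given here. In the middle 50% of the Hes1 window 8 KP1 peaks and 1 KP22 peak were left. Counting any overlap with the window, joining peaks up to 1000 bases apart, the other definitions of a shared peak and the main chromosomes alone moved none of the summed values by over 1.5 times, but a reciprocal overlap of at least 50% left 1 of the 3 shared peaks at Hes1. All 3 of these stayed shared at an overlap of at least 50% of the shorter peak. No paired analysis was possible because each line has 1 peak list and no value per library, and leaving out a replicate could not be run for the same reason. Regions of the authors' table at other thresholds were not run, since they carry no position. Reads per peak are unknown, so binding below the peak caller's threshold would not be seen at a place without a listed peak.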

Other observations

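Outside the windows, some places were peaks in both lines. The nearest outside peaks of KP1 and KP22 overlapped each other at 4 of the 10 window edges. Over the whole lists, 26.8% of KP1 peaks and 66.1% of KP22 peaks overlapped a peak of the other line. Above the Hes1 window, a KP1 peak of 529 bases at chr16:30331860-30332388 contained a KP22 peak of 481 bases at chr16:30331868-30332348, 112.0 kb from the edge. Below the Dll1 window, a KP1 peak of 308 bases at chr17:15345112-15345419 contained a KP22 peak of 249 bases. Below the Jag1 window, a KP22 peak of 343 bases at chr2:136721903-136722245 contained a KP1 peak of 249 bases, and below the Notch1 window peaks of 256 bases in KP1 and 308 bases in KP22 had 240 bases in common. At the lower edge of the Hes1 window, a KP1 peak of 654 bases at chr16:29894200-29894853 began 5.8 kb outside. This peak was wider than any KP1 peak inside the window. The nearest KP22 peak on that side began 206.0 kb from the edge.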
